A study of Mus musculus with 8 samples.

Results

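The 10 genes of the Notch pathway, 4 receptors (Notch1, Notch2, Notch3 and Notch4), 2 ligands (Jag1 and Jag2) and 4 target repressors (Hes1, Hey1, Hey2 and Heyl), described here were found by gene symbol among the 43346 genes of the count table, and all 10 had a row. All 8 samples were MC3T3, an established line of mouse pre-osteoblasts able to form mineralized matrix, held for 7 days with 100 ug/mL ascorbic acid and 10 mM beta-glycerophosphate. For the 4 LLC_CM libraries the cells also received, at 25%, serum-free medium in which LLC1 (Lewis lung carcinoma of the mouse) had grown for 48 hours. NCM, with 4 libraries, is read here as the vehicle control, since the labels describe no other group and do not spell the abbreviation out. The series asks how products released by lung carcinoma cells change RNA levels in osteoblasts. All libraries come from 1 cell line that was given medium, not tumour cells. Whether replicates were separate cultures is not said in the labels, and the p-values therefore reflect only the sample-to-sample spread, which may be technical.

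Notch receptors are single-pass membrane proteins that are activated by Delta-like or Jagged ligands on a neighbouring cell. Ligand binding exposes the receptor to cleavage, first by an ADAM protease and then by gamma-secretase, and the released intracellular domain enters the nucleus, where it joins the DNA-binding protein Rbpj and a Mastermind coactivator. Genes switched on in this way include the Hes and Hey genes, which encode basic helix-loop-helix repressors. In the osteoblast lineage the pathway is known for restraining differentiation of precursors, and Notch2 and Jag1 are linked to inherited skeletal disorders.

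The count table held between 27264212 and 35573953 reads per library, and a count of 0 in 1 library allowed 0.0843 to 0.110 CPM (the count scaled to a common library total), at 3 counts and for counting error only. All 8 osteoblast markers examined were tested and their summed level was 50715 to 59807 CPM in LLC_CM and 67970 to 89827 CPM in NCM; 7 fell and 1 rose in LLC_CM. In bulk RNA, fewer cells of a type and less RNA per cell cannot be told apart. Of 14991 genes tested with edgeR's quasi-likelihood test, 36.9% were called at a Benjamini-Hochberg adjusted p under 0.05, 18.8% higher and 18.1% lower in LLC_CM.

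The Notch genes did not move as a block. Of the 10 members, 5 passed the filter on low counts, which asks for about 0.330 CPM in at least 4 libraries: Notch1, Notch2, Notch3, Jag1 and Hes1. Among these, Notch1 and Jag1 rose in LLC_CM, Notch3 and Hes1 fell, and Notch2 was not called, so 4 of the 5 were called beside 36.9% of all genes tested. The libraries of the 2 groups did not overlap for these 4 and for Notch4, beside 36.3% of all genes tested. The other 5 members, Notch4, Jag2, Hey1, Hey2 and Heyl, had too few reads for the test and are given by their counts.

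The upstream regions of the 4 tested members that RefSeq's GRCm38.p6 promoter table holds are shown because Hes and Hey proteins are DNA-binding repressors and these genes moved in different directions: Notch1 and Jag1 higher, Notch3 lower, Notch2 not called. Each is the 250 bases before the RefSeq start, 5′ to 3′ on the gene's strand. Capitals mark letters that Hes and Hey repressors are known to bind, CACGNG (its reverse complement is CNCGTG) or CACNAG, called the N-box (reverse complement CTNGTG). The regions are Notch1 at chr2:26503823-26504072 (minus strand), Jag1 at chr2:137116521-137116770 (minus strand), Notch2 at chr3:98013288-98013537 (plus strand) and Notch3 at chr17:32166891-32167140 (minus strand).
Notch1: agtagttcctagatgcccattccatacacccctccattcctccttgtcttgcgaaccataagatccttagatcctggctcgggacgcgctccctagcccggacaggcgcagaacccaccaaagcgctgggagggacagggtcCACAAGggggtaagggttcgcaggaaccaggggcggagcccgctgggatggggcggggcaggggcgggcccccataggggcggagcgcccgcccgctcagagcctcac
Jag1: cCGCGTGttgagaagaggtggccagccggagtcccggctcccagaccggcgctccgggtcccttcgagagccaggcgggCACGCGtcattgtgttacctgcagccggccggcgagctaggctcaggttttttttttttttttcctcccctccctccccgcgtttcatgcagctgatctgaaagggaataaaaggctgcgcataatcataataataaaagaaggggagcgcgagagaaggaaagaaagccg
Notch2: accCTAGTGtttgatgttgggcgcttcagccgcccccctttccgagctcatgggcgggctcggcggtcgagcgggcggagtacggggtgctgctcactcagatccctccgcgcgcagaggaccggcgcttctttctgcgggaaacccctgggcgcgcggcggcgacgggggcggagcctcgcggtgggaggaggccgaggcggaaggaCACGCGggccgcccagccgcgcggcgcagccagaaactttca
Notch3: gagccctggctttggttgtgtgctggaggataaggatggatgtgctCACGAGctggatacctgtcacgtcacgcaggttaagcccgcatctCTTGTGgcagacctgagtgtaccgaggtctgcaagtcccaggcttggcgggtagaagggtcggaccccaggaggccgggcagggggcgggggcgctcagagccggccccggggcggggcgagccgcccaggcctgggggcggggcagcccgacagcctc

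CACGNG was found, on either strand, in 3 of the 7 members' windows in the table, those of Jag1, Notch2 and Notch3, and in 23.5% of all 32851 windows of this length. In Jag1 it stood at bases -249 to -244 and -171 to -166 from the start, in Notch2 at -42 to -37 and in Notch3 at -204 to -199. The Notch3 letters, CACGAG, match both patterns. CACNAG was found in Notch1, Notch2 and Notch3, beside 36.7% of all windows. TGGGAA (reverse complement TTCCCA), the core of the letters that Rbpj is known to bind, was in 21.6% of all windows and, among the 7 members' windows, in that of Hey2 alone, at -207 to -202, where it lies within the longer GTGGGAA (5.4% of all windows). These are matches of letters and not measured sites. The 7 members' windows held 57.2% to 87.2% G or C, above the median of 52.4% over all windows. The shares over all windows are therefore not matched in base composition. Hes1, Hey1 and Heyl had no entry in the table. The deposited genes of Notch1 and Jag1 start further upstream than the RefSeq starts used here. The Notch1 gene starts at base 26516663, so its whole window lies within the deposited gene, and the Jag1 gene starts at base 137116644, so the end of its window nearest the RefSeq start does too.

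Notch2, the receptor whose mutations cause a human disorder of bone loss, was the most abundant of the 10 genes in every library. Per kilobase of exon, with the deposited exon lengths, its level was 12.7 ± 0.938 CPM per kb in NCM and 11.6 ± 0.999 CPM per kb in LLC_CM (SD, n = 4). Its per-gene level was 112.8, 113.6, 131.3 and 131.4 CPM in LLC_CM replicates 1 to 4 and 130.3, 127.6, 148.5 and 128.7 CPM in NCM replicates 1 to 4. LLC_CM replicates 1 and 2 lay below all NCM libraries, LLC_CM replicates 3 and 4 lay among them, and NCM replicate 3 was the highest of the 8, so the groups overlapped. The log2 fold change of Notch2, LLC_CM minus NCM, was -0.13 ± 0.07 (SE; edgeR, adjusted p = 0.17). It stayed negative in all 16 alternative fits, from -0.17 to -0.08, with adjusted p from 0.090 to 0.40. Notch2 (ENSMUSG00000027878) lies on chromosome 3, bases 98013538 to 98150367 in mm10.

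Notch1, a broadly expressed receptor with a described role in limiting osteoblast differentiation, was higher in LLC_CM. It read 31.4, 29.1, 39.4 and 40.4 CPM in LLC_CM replicates 1 to 4 and 24.8, 25.8, 29.0 and 25.1 CPM in NCM replicates 1 to 4. All 4 LLC_CM values lay above all 4 NCM values, by a narrow margin between LLC_CM replicate 2 and NCM replicate 3, and LLC_CM replicates 3 and 4 stood above the other 2 of their group. Notch1 rose 1.34-fold (log2 0.42 ± 0.10, SE; edgeR, adjusted p = 0.0045). Its spread in LLC_CM, a coefficient of variation of 16.0%, was larger than the 2.97% that counting error alone gives at this depth. Notch1 (ENSMUSG00000026923) lies on chromosome 2, bases 26457903 to 26516663, and 7.5% of its exonic length overlapped 0610009E02Rik on the other strand, whose reads cannot be told apart with a library kit that does not mark strand.

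Notch3, a receptor best known from vascular smooth muscle and pericytes, moved the other way. It read 14.4, 11.7, 14.8 and 15.6 CPM in LLC_CM replicates 1 to 4 and 17.1, 20.9, 24.3 and 16.5 CPM in NCM replicates 1 to 4. The groups did not overlap, although LLC_CM replicate 4 and NCM replicate 4 were close. Notch3 was 1.39-fold lower in LLC_CM (log2 -0.48 ± 0.13, SE; edgeR, adjusted p = 0.0080). Notch3 (ENSMUSG00000038146) lies on chromosome 17, bases 32120820 to 32166880, and 6.03% of its exonic length overlapped Gm17276 on the other strand. Of 7 markers of pericytes and smooth muscle, 4 were tested and 2 fell with Notch3. Their summed level, 32.9 to 54.1 CPM in LLC_CM and 144.0 to 220.0 CPM in NCM, was almost all Cspg4, which averaged 38.8 ± 11.4 CPM in LLC_CM and 162.0 ± 34.6 CPM in NCM (SD, n = 4). The second to fall was Mcam, at 0.510 and 1.04 CPM, while Des (edgeR adjusted p = 0.11) and Myh11 (0.86) were not called. Mcam reached the filter's level of about 0.330 CPM in every NCM library but not in every LLC_CM library. Acta2, an abundant smooth muscle gene held in another list, was at 722 ± 74.6 CPM in LLC_CM and 833 ± 68.8 CPM in NCM, with groups that overlapped, and was not called (adjusted p = 0.075). Of the defining pericyte markers, Kcnj8 and Abcc9 had no read in any library, and Rgs5 went the other way, with 11 summed reads in LLC_CM and 1 in NCM.

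Notch4, a receptor known mainly from endothelium, was barely detected. It had 24 reads in LLC_CM and 52 in NCM when the 4 libraries of each were summed, or 0.193, 0.222, 0.252 and 0.0896 CPM in LLC_CM and 0.580, 0.319, 0.529 and 0.347 CPM in NCM replicates 1 to 4. The groups did not overlap, and the summed counts were 2.34-fold lower in LLC_CM, with an exact 95% interval of 1.42 to 3.98 that covers counting error only. Fitted without the low-count filter, Notch4 had a log2 fold change of -1.22 ± 0.48 (SE; edgeR, adjusted p = 0.058 over 22913 genes). It also entered 5 of the 8 fits that left out 1 library, and passed 0.05 in 3 of them. Its adjusted p (edgeR) was 0.041 without LLC_CM replicate 2, 0.027 without LLC_CM replicate 3 and 0.029 without NCM replicate 2. It was 0.055 without LLC_CM replicate 1 and 0.083 without LLC_CM replicate 4. Every LLC_CM value lay under the filter's level of about 0.330 CPM, so Notch4 entered these fits only through NCM, where it is higher. The p-values of the fits that left out 1 library are therefore no separate support for a difference. Endothelial markers summed to 1.92 to 2.48 CPM in LLC_CM and 2.81 to 3.71 CPM in NCM. Of 2 tested, Vwf fell and Esam was not called (edgeR, adjusted p = 0.17). Pecam1 had 24 summed reads in LLC_CM and 21 in NCM, Tek had 2 in each, and Emcn had 4 in LLC_CM and 0 in NCM. Cdh5, Kdr, Tie1 and Cldn5 had no read in any library.

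**Figure D1:**
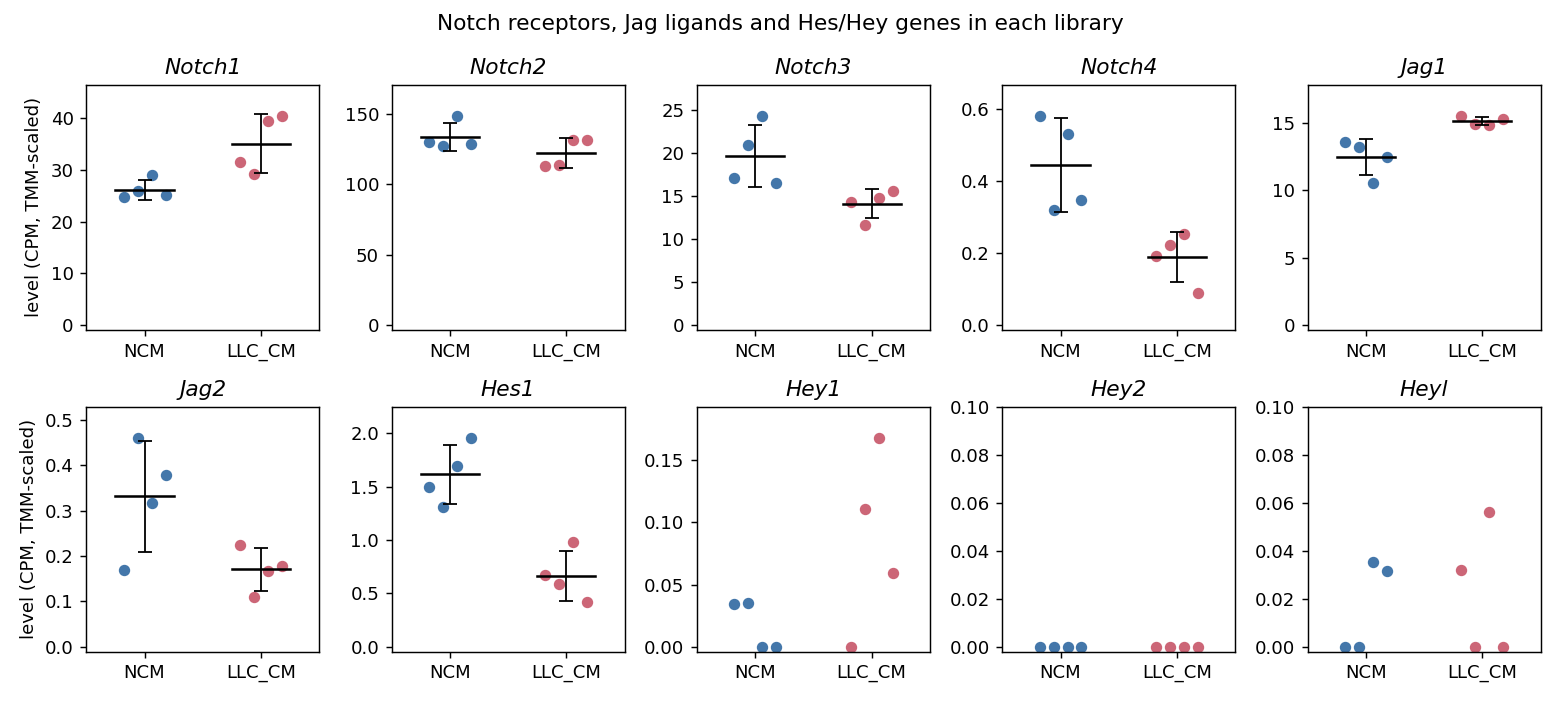
Level in CPM, scaled by TMM factors, of each of the 10 genes (1 panel each, linear axes that differ between panels) in the 4 NCM (blue) and 4 LLC_CM (red) libraries; each point is 1 library, in replicate order from left to right, and the black line and bar give the mean and SD, left out for Hey1, Hey2 and Heyl. The groups are apart for Notch1 and Jag1 (LLC_CM above) and for Notch3, Notch4 and Hes1 (LLC_CM below).

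Notch1 and Notch3 moved in opposite directions, while Notch2 held most of the receptor RNA in both groups. Notch2 made up 73.2% to 76.0% of the summed receptor level per kb in NCM and 72.3% to 75.4% in LLC_CM. The Notch1 share was 10.6% to 10.96% in NCM and 14.3% to 16.4% in LLC_CM. The Notch3 share was 12.7% to 15.7% in NCM and 10.1% to 12.1% in LLC_CM. Both ranges were apart between the groups, in opposite directions, and the Notch4 share was at most 0.440% in all 8 libraries. The ratio of Notch1 to Notch3, each per kb, was 0.817, 0.699, 0.674 and 0.860 in NCM replicates 1 to 4 and 1.24, 1.41, 1.502 and 1.47 in LLC_CM replicates 1 to 4, a description with no test of its own. These shares and ratios use the deposited exon lengths. With the longest GENCODE M21 transcripts as lengths, Notch1 averaged 2.76 CPM per kb in NCM, above Notch3 at 2.46. Whether the ratio lies under 1 in NCM thus depends on the length, while its direction between the groups does not. The summed level of the 4 receptors was 14.3 to 17.3 CPM per kb in LLC_CM and 16.1 to 19.3 CPM per kb in NCM, and these ranges overlapped.

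**Figure D2:**
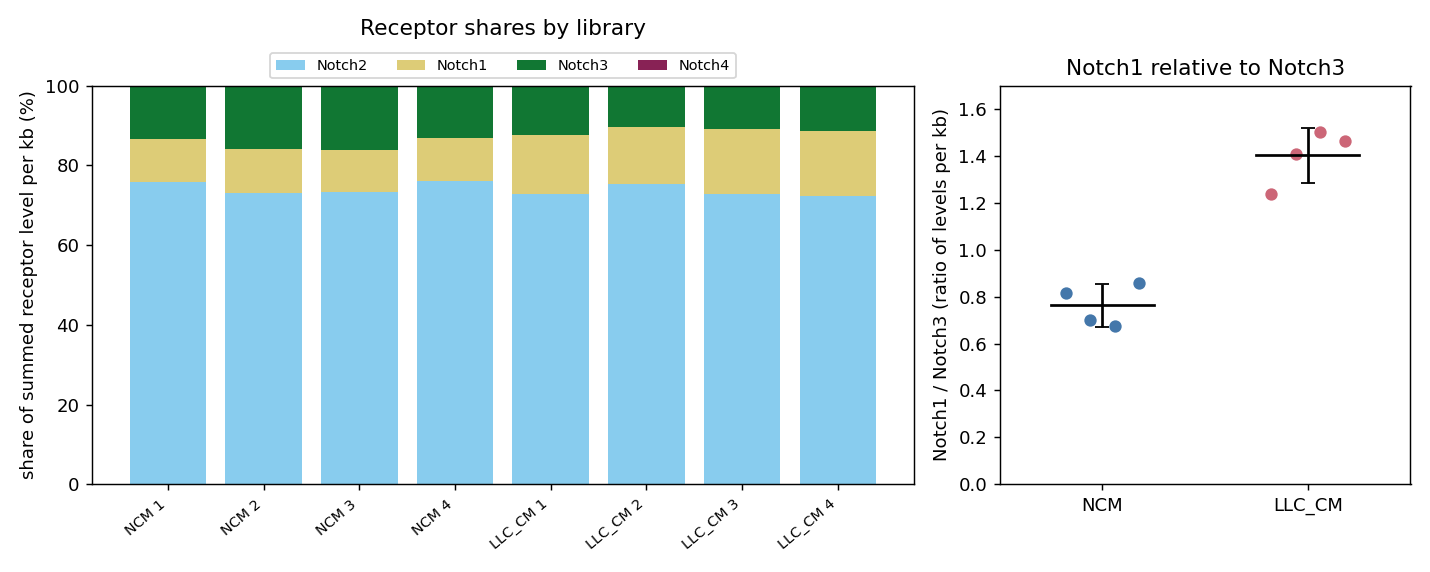
Left, share (%) of the summed level per kb of exon taken by each of the 4 Notch receptors in each library. Right, ratio of the Notch1 to the Notch3 level per kb in each library (points), with the mean and SD of each group (black). Notch2 holds at least 72.3% of every bar, and the Notch1 to Notch3 ratio is at most 0.860 in the NCM libraries and at least 1.24 in the LLC_CM libraries. Shares and ratios use the deposited exon lengths, and whether the ratio lies under 1 in NCM depends on the length used.

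Among the ligands, Jag1, which encodes Jagged-1, was well expressed and slightly higher in LLC_CM. It read 15.5, 15.0, 14.9 and 15.3 CPM in LLC_CM replicates 1 to 4 and 13.6, 13.2, 10.6 and 12.5 CPM in NCM replicates 1 to 4. All LLC_CM values lay above all NCM values, and NCM replicate 3 was the lowest of the 8. Jag1 rose 1.22-fold (log2 0.28 ± 0.09, SE; edgeR, adjusted p = 0.029). The call was lost when LLC_CM replicate 1 (adjusted p = 0.073), LLC_CM replicate 4 (0.064), NCM replicate 3 (0.097) or NCM replicate 4 (0.061) was left out, with log2 fold changes from 0.20 to 0.32 over the 8 such fits. The LLC_CM libraries spread by a coefficient of variation of 1.91%, less than the 4.55% that counting error alone gives at their mean count. Jag1 (ENSMUSG00000027276) lies on chromosome 2, bases 137081456 to 137116644.

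Jag2, the second Jagged ligand, had 22 reads in LLC_CM and 39 in NCM, summed over libraries. Its level was 0.225, 0.111, 0.168 and 0.179 CPM in LLC_CM replicates 1 to 4 and 0.170, 0.460, 0.318 and 0.378 CPM in NCM replicates 1 to 4. NCM replicate 1 lay among the LLC_CM values, so the groups overlapped. The summed counts were 1.92-fold lower in LLC_CM, with an exact 95% counting interval of 1.11 to 3.40, and the fit without the low-count filter gave a log2 fold change of -0.94 ± 0.51 (SE; edgeR, adjusted p = 0.21). Per kb of exon, Jag1 averaged 2.60 CPM per kb in LLC_CM and 2.14 CPM per kb in NCM, against 0.0421 and 0.0818 CPM per kb for Jag2, so Jag1 was the main Jagged transcript in both groups.

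Hes1, the best known target of the pathway and a repressor of many lineage genes, showed the largest change among the tested members. It read 0.676, 0.592, 0.979 and 0.418 CPM in LLC_CM replicates 1 to 4 and 1.5002, 1.31, 1.69 and 1.95 CPM in NCM replicates 1 to 4. Every LLC_CM value lay below every NCM value, and LLC_CM replicate 3 was the highest of its group. Hes1 was 2.40-fold lower in LLC_CM (log2 -1.26 ± 0.27, SE; edgeR, adjusted p = 0.0019). It rested on 86 summed reads in LLC_CM and 191 in NCM, and counting error alone gives a coefficient of variation of 21.6% and 14.5% at those depths, beside the measured 35.2% and 17.1%. The ratio of summed counts had an exact 95% counting interval of 1.85-fold to 3.14-fold lower. Hes1 (ENSMUSG00000022528) lies on chromosome 16, bases 30064384 to 30067796, and no other gene overlapped its exons in the GENCODE M21 annotation.

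The Hey genes, which encode repressors related to Hes1, were at or near the detection limit in both groups. Hey1 had 0, 3, 6 and 2 reads in LLC_CM replicates 1 to 4 and 1, 1, 0 and 0 reads in NCM replicates 1 to 4. Its summed counts, 11 against 2, differed by a ratio of 5.08 (1.11 to 47.2, exact 95% counting interval), and the fit without the low-count filter gave an adjusted p of 0.21 (edgeR). LLC_CM replicate 1 had no Hey1 read, so the groups overlapped. Heyl had 3 summed reads in LLC_CM and 2 in NCM, no more than the 3 counts that a 0 allows, and no fold is given. Hey2 had no read in any library, which allowed up to 0.0236 CPM in LLC_CM and 0.0255 CPM in NCM, at 3 counts over the summed libraries of a group.

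Ordered by level per kb of exon in NCM, Notch2 stood far above Notch3 (2.45 ± 0.450 CPM per kb), Jag1 (2.14 ± 0.231) and Notch1 (1.84 ± 0.135), followed by Hes1 (0.793 ± 0.135; SD, n = 4). Jag2, Notch4, Hey1, Heyl and Hey2 were each at or under 0.0818 CPM per kb. Neighbours from Notch3 to Notch1 in that order had overlapping ranges over libraries, while Hes1 lay below Notch1 in every library. In LLC_CM the order after Notch2 was Jag1 (2.60 ± 0.0497 CPM per kb), Notch1 (2.47 ± 0.396), Notch3 (1.75 ± 0.210) and Hes1 (0.327 ± 0.115; SD, n = 4), and the ranges of Jag1 and Notch1 overlapped while those of Notch1 and Notch3 did not. The place of Notch1 depends on the length used. With its longest GENCODE M21 transcript (9488 bases) in place of the deposited length (14232 bases), Notch1 averaged 2.76 CPM per kb in NCM, above Notch3 at 2.46, and 3.70 in LLC_CM, above Jag1 at 2.70.

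The calls of Notch1, Notch3 and Hes1 held in all 16 alternative fits. Their adjusted p ranged from 0.00037 to 0.022 for Notch1, from 0.0015 to 0.027 for Notch3 and from 0.00016 to 0.0078 for Hes1. Leaving out single libraries moved the log2 fold change of Notch1 between 0.34 and 0.50, of Notch3 between -0.56 and -0.37 and of Hes1 between -1.54 and -1.10.

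**Figure D3:**
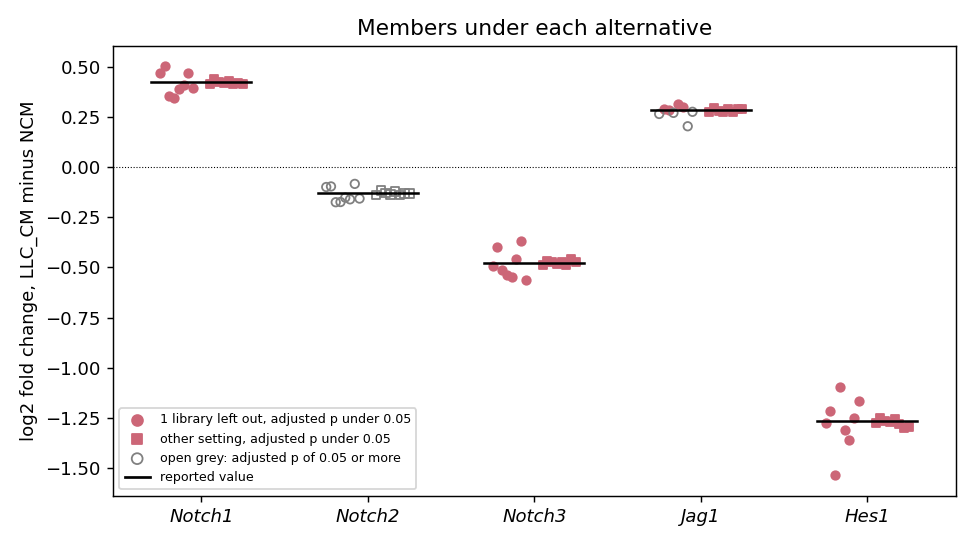
Log2 fold change, LLC_CM minus NCM, of the 5 tested members in each alternative fit: circles leave out 1 library, squares use another normalization, filter, tool or a replicate block, filled red marks an adjusted p under 0.05 and open grey one at or above it; black lines give the reported values. Notch1, Notch3 and Hes1 are filled throughout, Notch2 is open throughout, and 4 of 8 circles of Jag1 are open.

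The 3 genes outside the pathway lists whose log2(CPM + 1) followed Notch2 most closely over the 8 libraries were Scamp4, Cic and Adat3 (Pearson r of 0.989, 0.986 and 0.985). For Jag1 they were Coa5, Rrm1 and Pak3 (0.985, 0.976 and 0.973), and for Hes1 Trim39, Cflar and Slc41a2 (0.991, 0.990 and 0.988). The 8 libraries share their 2 groups and each library's depth, and of 8941 genes compared 189 reached r over 0.9 with Notch2, 260 with Jag1 and 765 with Hes1. Scamp4 and Adat3 had near levels, 41.6 and 44.6 CPM in LLC_CM and 48.1 and 51.3 CPM in NCM. Whether they share exons was not examined.

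Other pathway genes reported from 8 lists numbered 86, of which 69 were tested. In LLC_CM 17 rose and 19 fell, so 52.2% were called beside 36.9% of all genes. Their median log2 fold change was -0.075, and that of all genes tested was 0.01. The counts of each list below stand beside 18.8% higher and 18.1% lower over all genes tested. No list was tested as a set.

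Among the nuclear partners of the receptors, 4 of 9 tested fell and 1 rose, with a list median of -0.16. Rbpj, the DNA-binding protein on which the Notch transcription complex assembles, fell from 102.3 ± 3.81 to 82.8 ± 4.13 CPM (SD, n = 4; log2 fold change -0.30 ± 0.06, edgeR adjusted p = 0.00056). Kat2b, a histone acetyltransferase, fell by 0.34 ± 0.07 on the log2 scale (adjusted p = 0.0020). The Mastermind coactivators split: Maml2 rose by 0.51 ± 0.07 (edgeR, adjusted p = 5.4e-05) while Maml1 and Maml3, named after their values were seen, had log2 fold changes of -0.25 ± 0.06 and -0.32 ± 0.10 (adjusted p = 0.0042 and 0.022). Rbpj, Maml1, Maml2, Maml3 and Kat2b each had groups that did not overlap.

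Of the 9 genes reported among the proteases and subunits that cleave the receptor, 2 rose, and their median was 0.10. The count was 1 without NCM replicate 1 or NCM replicate 2 and 3 without NCM replicate 4, and without LLC_CM replicate 2 the number lower was 1. Ncstn, which encodes nicastrin, the substrate-receiving subunit of gamma-secretase, rose from 116.0 ± 4.82 to 136.9 ± 3.17 CPM (SD, n = 4; log2 0.24 ± 0.05, edgeR adjusted p = 0.0023), and Furin, the protease that processes receptor precursors, rose by 0.32 ± 0.09 (adjusted p = 0.014), with groups that overlapped. Adam10, which makes the ligand-induced cut, was at 126.9 ± 6.52 CPM in LLC_CM and 139.1 ± 10.9 CPM in NCM and was not called. Aph1b and Aph1c are close copies of each other, so the split of reads between them is uncertain, and neither was called.

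Enzymes that add sugars to the receptors' EGF repeats were changed in both directions, 3 of 7 tested higher and 1 lower, with a list median of 0.16. Xxylt1 rose by 0.60 ± 0.07 (edgeR, adjusted p = 4.3e-06) and Gxylt2 fell by 0.66 ± 0.06 (adjusted p = 2.4e-07); both encode xylosyltransferases that extend O-glucose. Lfng, the Fringe enzyme that shifts receptors toward Delta-like ligands, rose from 21.9 ± 1.27 to 28.0 ± 2.94 CPM (SD, n = 4; log2 0.36 ± 0.09, adjusted p = 0.0045), and its relative Mfng had no read in any library. Of 3 tested ligand-like genes 1 rose, with a list median of 0.59: Mfap5, a microfibril protein reported to bind Notch1, rose by 0.60 ± 0.12 (adjusted p = 0.0012). Dll1, a Delta-like ligand, was at 1.01 ± 0.191 CPM in LLC_CM and 0.667 ± 0.173 CPM in NCM and was not called (adjusted p = 0.10), and Dll4 was under the filter.

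Regulators of receptor and ligand turnover included 5 lower and 1 higher of 14 tested, with a list median of -0.20. Without LLC_CM replicate 3 the number lower was 8. Fbxw7, the ubiquitin ligase subunit that marks the Notch intracellular domain for degradation, averaged 17.0 ± 0.580 CPM in LLC_CM and 42.4 ± 2.21 CPM in NCM, 2.50-fold lower (SD, n = 4; log2 -1.32 ± 0.07, edgeR adjusted p = 1.1e-09). Dtx4, a Deltex ubiquitin ligase, fell by 0.77 ± 0.08 (adjusted p = 1.4e-06) and Itch, another ubiquitin ligase that acts on Notch, fell by 0.39 ± 0.05 (adjusted p = 2.4e-05).

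Of 15 corepressors 7 fell and 4 rose, with a list median of -0.19. Tle1, a Groucho-type corepressor that Hes proteins recruit, averaged 9.64 ± 0.478 CPM in LLC_CM and 21.1 ± 1.75 CPM in NCM, 2.19-fold lower (SD, n = 4; edgeR adjusted p = 1.2e-07). Sirt1, a deacetylase, fell by 0.44 ± 0.08 (adjusted p = 0.00042), and Hdac1, a histone deacetylase, rose by 0.39 ± 0.05 (adjusted p = 2.4e-05).

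Of 3 tested Hes-related genes 1 rose, with a list median of 0.14. Bhlhe41, a repressor of the same bHLH-orange class that also acts in the circadian clock, averaged 22.8 ± 2.04 CPM in LLC_CM and 11.3 ± 1.09 CPM in NCM, 2.02-fold higher (SD, n = 4; edgeR adjusted p = 8.4e-07). Hes6, at 15.7 ± 0.724 CPM in LLC_CM and 14.3 ± 1.17 CPM in NCM, was not called, and Hes5 had no read in any library.

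Other genes described as Notch targets in several cell types moved both ways, 4 of 9 tested higher and 2 lower, with a list median of -0.17. The number lower was 4 without NCM replicate 4 and 4 with DESeq2. Ccnd1, which encodes cyclin D1, fell by 0.62 ± 0.06 (edgeR, adjusted p = 1.0e-06), Cdkn1a, the cell cycle inhibitor p21, fell by 0.76 ± 0.06 (adjusted p = 2.0e-07) and Sox9, a chondrocyte factor, rose by 0.76 ± 0.07 (adjusted p = 7.2e-07). Nrarp, a feedback inhibitor and direct target, had 2 summed reads in LLC_CM and 5 in NCM, and Dtx1 had no read in any. Exons of Gm38287, on the other strand, covered 79.4% of the exonic bases of Nrarp, and those of a neighbour on the other strand covered 23.4% of Ccnd1.

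**Figure D4:**
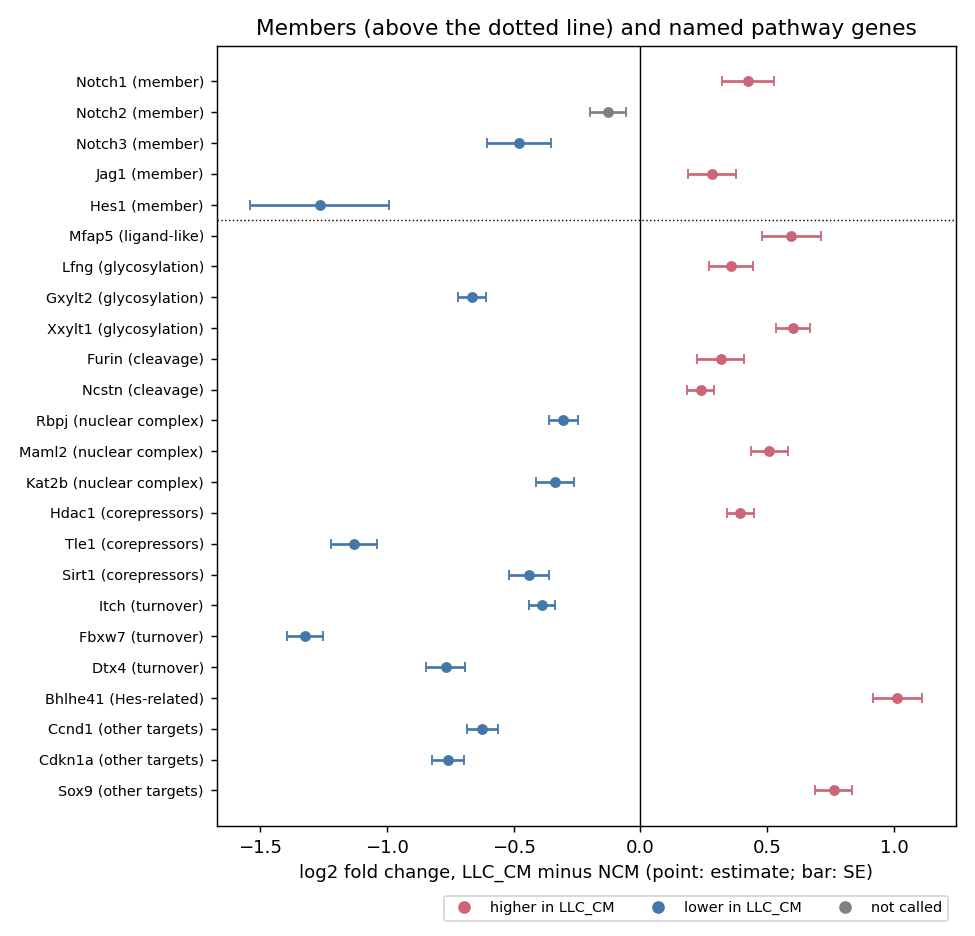
Log2 fold change, LLC_CM minus NCM, with its SE (horizontal bars) for the 5 tested members, above the dotted line, and the 19 pathway genes named by rule, below it with their list in brackets; red is higher in LLC_CM, blue lower and grey not called. Members lie on both sides of 0, and Hes1, Tle1 and Fbxw7 lie furthest to the left.

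Single markers of other cell types rose along with Notch1 and Jag1, while most genes of their lists did not. Of 4 macrophage markers tested 2 rose: Lyz2, at 20.3 ± 5.91 CPM in LLC_CM and 11.5 ± 2.65 CPM in NCM, and Fcer1g, at 1.25 ± 0.170 and 0.427 ± 0.132 CPM (SD, n = 4). Cd68 was not called, Csf1r had a log2 fold change of -0.48 and was not called, Tyrobp had no read in any library, and Ptprc had 0 summed reads in LLC_CM and 4 in NCM. The list summed to 18.7 to 32.3 CPM in LLC_CM and 11.6 to 17.4 CPM in NCM, most of it Lyz2. Of the epithelial markers Muc1 alone was tested, and it rose from 0.383 ± 0.193 to 1.46 ± 0.455 CPM (SD, n = 4). Cdh1 had 9 summed reads in LLC_CM and 13 in NCM, Krt19 had 5 and 1, and Cldn4 had 0 and 1. Epcam, Krt8, Krt18 and Cldn3 had no read in any library. The epithelial list summed to 1.11 to 2.24 CPM in LLC_CM and 0.318 to 0.708 CPM in NCM. Of 2 skeletal muscle markers tested Tnnt3 rose and Acta1 was not called. Myod1 had 4 summed reads in LLC_CM and 0 in NCM, and Myog, Myf5 and Pax7 had no read. The list sums were 0.966 to 1.90 CPM in LLC_CM and 0.318 to 0.716 CPM in NCM. Fcer1g, Muc1 and Tnnt3 reached the filter's level of about 0.330 CPM in every LLC_CM library but not in every NCM library. They thus passed the filter through the group where they are high, and their calls carry that limit. The part of the marker genes in the Notch1 and Jag1 results was not tested.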

How the data were processed

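Poly(A)-selected RNA libraries of 8 MC3T3 samples were made from 200 ng of RNA with 12 PCR cycles, per the labels' protocols. Whole-number read counts, not normalized, make up the deposited table. CASAVA, STAR, featureCounts and mm10 are named in its making, per the submitters' processing notes; versions and the strand setting are not given in the sources used here. All 37 mitochondrial genes are listed at 0 in every library, so library totals hold no mitochondrial reads. Columns were assigned to samples by title. Gene lengths and coordinates come from the authors' table, and exon overlaps and longest transcripts from GENCODE M21, which holds 42462 of the 43346 genes.

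The test was edgeR 4.0.16's quasi-likelihood F test (R 4.3.3, limma 3.58.1) with TMM factors, filterByExpr, robust estimation and no covariate, adjusted over 14991 genes. A standard error is a fold change's size on the log2 scale over the root of its F statistic. Means ± SD are of TMM-scaled CPM. On simulated counts of LLC_CM against NCM for 14991 genes, the recovered share was 78% for 1.5-fold, 91% for 2-fold and 98% for 4-fold changes, with 10 false calls. The simulation changed 67, 67 and 66 genes at those folds, against 5531 genes called in the data. Its shares cover all expression levels together, so recovery at the level of Hes1 or for smaller changes was not measured. No library repeated another of its group (lowest chi-square over degrees of freedom 7.07).

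The members and lists were chosen with earlier results of these data known. Named were all 10 members, the called genes of each list with the lowest adjusted p, 3 at most, and the 3 genes of at least 10 CPM most correlated with the most abundant receptor, ligand and target per kb. Adam10, Aph1b, Aph1c, Dll1, Dll4, Mfng, Maml1, Maml3, Hes5, Hes6, Nrarp, Dtx1, Acta2 and the markers were named after their values were seen. A gene of the lists is not reported here and enters no list count. The alternatives changed the scaling (upper-quartile, DESeq2 size factors, library size only), the filter (none, or 1 CPM in 4 or more libraries), the tool (limma-voom, DESeq2 1.42.0), the threshold (0.01) or the gene length (longest transcript), blocked by replicate number, or left out each library.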

Additional observations from a re-analysis of the deposited data

Results flagged for a closer look

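An outlying library was sought in 76 groups of 4 libraries, those of the members, the list genes named by rule and the correlated genes. Genes named after their values were seen were not examined. In 8 of the groups, the gap of 1 library to the nearest of the others exceeded Dixon's 95% critical share of the group's range. Chance gives this in about 1 in 20 groups. The Hey2 groups, with no read, count among the 76 but could not be flagged. NCM replicate 3 stood apart in 3 of the 8 flagged groups. It was high for Notch2 (148.5 CPM, others 127.6 to 130.3) and low for Rrm1 (94.28 CPM, others 126.4 to 128.3) and Pak3 (87.01 CPM, others 107.8 to 109). Rrm1 and Pak3 were chosen for following Jag1, which was itself lowest in NCM replicate 3. Their flags are therefore not separate evidence on that library, and the rate of 1 in 20 does not hold for genes chosen so. LLC_CM replicate 4 was low for Rbpj (76.65 CPM, others 84.42 to 85.41), Dtx4 (14.97 CPM, others 17.35 to 17.71) and Cdkn1a (242.4 CPM, others 268.1 to 270.9). NCM replicate 4 was low for Lfng (19.96 CPM, others 22.43 to 22.55), and LLC_CM replicate 1 was low for Sox9 (32.41 CPM, others 35.16 to 35.31).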

How the results depend on the processing

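Calls and directions of Notch1, Notch3 and Hes1 held in all 16 alternative fits. The stricter threshold of 0.01 was applied to the main fit only, where all of these calls held. Over the 16 alternative fits the adjusted p reached 0.022 for Notch1 and 0.027 for Notch3 (both edgeR, without 1 library), above 0.01. For Hes1 the adjusted p was at most 0.0078 over the same fits. The fit filtered at 1 CPM in 4 or more libraries kept Hes1 only through NCM and is no separate support for its call. Jag1 lost its call at 0.01 (log2 0.28, adjusted p = 0.029) and in 4 of the 8 fits without 1 library (log2 from 0.20 to 0.28 in those 4 and up to 0.32 over all 8), so the number of members called higher was 1 at an adjusted p of 0.01 and 1 to 2 over the fits without 1 library; fewer samples enter those fits. Members called lower numbered 2, or 3 where Notch4 entered through its NCM libraries and passed. Over all genes 2014 rose and 1932 fell at 0.01, against 2814 and 2717. Other pathway genes called numbered 15 to 18 higher and 15 to 25 lower over all alternatives. Corepressors called lower numbered 4 at 0.01, against 7, and Furin lost its call there. No scaling moved the median log2 fold change of all genes by over 0.1 (0.004 to 0.026). With the replicate number as a block, 2 members rose and 2 fell as before (Jag1 log2 0.29, adjusted p = 0.032), and 18 and 21 other pathway genes were called; same-numbered libraries' deviations correlated by 0.07, -0.04, 0.20 and -0.03, so the numbers are not taken to pair the samples. The longest transcript as length moved the level per kb of Notch1 and Hes1 in both groups (Hes1 to 0.454 CPM per kb in LLC_CM and 1.10 in NCM) and of Jag1 in LLC_CM by more than 1 SD. Depth limits Notch4, Jag2, Hey1, Hey2 and Heyl, each with 52 or fewer reads in either group.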
